A study of Mus musculus with 20 samples.

Results

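Transcripts on Leydig cell polysomes were compared between stages II/III-VI of the seminiferous cycle and the other windows of that cycle. The comparison set the 2 immunoprecipitation (IP) arrays of window II/III-VI against the 8 IP arrays of the other 4 windows, out of 20 arrays in the study, with each array centred within its replicate set of 5. The mice were 129/C57BL6 males carrying the RiboTag allele together with a Cyp17 iCre transgene. RiboTag adds an HA epitope to a ribosomal protein in cells with Cre activity, so an antibody to HA pulls down polysomes of the cells in which the Cyp17 promoter drove Cre. Every group, the other windows included, had received WIN 18,446, an inhibitor of retinoic acid synthesis, at 100 µg per g daily for 7 days from day 2 after birth, and 200 µg of all-trans retinoic acid on day 9. This treatment synchronizes the tubules, and testes were collected 42 to 50 days after the retinoic acid. Besides II/III-VI the study had the windows VI-VIII, VIII-X, X-XII and XII-II/III, and each window had 2 IP arrays and 2 arrays of total testis RNA (Total). Each time point was represented by 1 testis, whose homogenate was split into 50 µl for Total and the rest for the IP. The labels do not say whether replicates came from separate animals, so p-values measure only the spread between these arrays. For 1 of the Total arrays of window XII-II/III the labels conflict, and its title and stage entry were followed.

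Leydig cells lie between the seminiferous tubules, receive luteinizing hormone and convert cholesterol to testosterone. The tubules pass through a fixed cycle of germ cell associations, called stages, in which the supporting Sertoli cells change their secretions. Stages II to VI hold round spermatids building the acrosome and the tail, and elongated spermatids that have not yet been released. In a normal testis tubules of all stages lie side by side, and synchronization brings most of them to neighbouring stages.

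The 2788 genes at least 1 log2 unit higher in the mean of the 10 IP arrays than in the mean of the 10 Total arrays are called Leydig genes here, and the other 10085 tested genes are called remaining genes. Remaining genes include those of other testis cells whose RNA came through the precipitation as well as genes shared by many cells. The class margin was set across separately normalized arrays, so it ranks genes rather than measuring purity. After centring each array on its median, 1522 of the tested genes reached the margin. The called genes nearest to the margin were Cyld at 1.04, Cacna2d1 at 1.05 and Tmco6 at 1.06 inside it, and Slc29a3 at 0.98, Rap1gap at 0.93 and Nudcd2 at 0.93 outside it. All 11 tested genes of the steroidogenesis list and 13 of 14 other Leydig cell markers tested fell in the Leydig class. Some tested genes of other lists fell in it too. These were 3 of 18 Sertoli, 3 of 10 spermatogonia, 1 of 6 myoid, 1 of 5 endothelial and 1 of 32 axoneme genes. Spermatid and spermatocyte markers lay in the remaining class, with 0 of 30 and 0 of 22 tested members among the Leydig genes, yet their intensities in the IP were not low. In the II/III-VI arrays the 30 spermatid markers summed to 141000 and 140000 intensity units in the IP against 244000 and 241000 in Total. Fewer cells of a type and less RNA per cell cannot be told apart in such bulk samples.

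The promoters of Arhgap28 and Foxa3 are shown because these genes had the largest rises among the Leydig genes. Each sequence holds the 250 bases before a RefSeq transcription start, in build GRCm38.p6, as given by RefSeq, read along the gene's minus strand. Arhgap28 has 2 annotated starts, of which the first, at chr17:68004109-68004358, is shown (the other, at chr17:67950941-67951190, holds no match to the words below), and Foxa3 has 1, at chr7:19023540-19023789. Capitals mark GGGCGTGG in Arhgap28 and the TATA box TATAAA in Foxa3.
Arhgap28 first start: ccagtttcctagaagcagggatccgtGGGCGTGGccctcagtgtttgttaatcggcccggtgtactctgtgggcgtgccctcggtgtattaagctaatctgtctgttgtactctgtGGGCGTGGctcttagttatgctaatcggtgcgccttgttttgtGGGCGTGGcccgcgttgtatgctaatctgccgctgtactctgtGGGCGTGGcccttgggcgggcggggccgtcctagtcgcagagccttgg
Foxa3: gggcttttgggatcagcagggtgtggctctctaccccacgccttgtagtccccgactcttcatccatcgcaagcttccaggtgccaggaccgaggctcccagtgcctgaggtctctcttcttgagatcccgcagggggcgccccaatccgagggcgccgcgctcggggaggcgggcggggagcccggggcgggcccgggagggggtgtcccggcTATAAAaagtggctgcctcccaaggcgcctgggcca
GGGCGTGG occurred 4 times in the first Arhgap28 promoter, beginning 224, 134, 91 and 48 bases before the start. That word was searched after the Arhgap28 sequence had been read, and it shares the letters GCGTGG with the EGR site searched. On either strand it was present in the promoters of 1041 of the 10361 tested genes with a RefSeq promoter, and in 4 of the 34 called Leydig genes that have one (Arhgap28, Castor1, Sesn1 and Tpmt). The TATA box of Foxa3 begins 36 bases before its start. All words were searched on either strand and anywhere in the 250 bases, so a match to TATAAA need not lie where a TATA box does. TATAAA occurred in 7.95% of tested genes, and in 3 of those 34 (Foxa3, Ankdd1b and Grasp). A cAMP response element (TGACGTCA), an EGR site (GCGTGGGCG) and an SF-1 site (TCAAGGTCA) were found in 2.93%, 1.25% and 0.309% of tested genes and in 0 of the 34, which says only that those letters are not in these windows.

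In the IP, 912 of 12873 genes tested, or 7.08%, differed between II/III-VI and the mean of the other 4 window means at an adjusted p under 0.05 (limma with the replicate set as a block and Benjamini-Hochberg adjustment, which holds for every adjusted p below). Of these, 405 were higher (3.15%) and 507 lower (3.94%) in II/III-VI. Leydig genes contributed few of them. Only 47 of 2788 Leydig genes passed, or 1.69%, with 12 higher (0.43%) and 35 lower (1.26%), against 865 of 10085 remaining genes, or 8.58%, with 3.9% higher and 4.68% lower. The differences of called Leydig genes were also small. Their median size was 0.44 log2 units, and Arhgap28 alone reached 1 unit, whereas 241 of the 865 called remaining genes did so. Of the 12 higher Leydig genes 11 had their highest IP level in II/III-VI, and of the 35 lower ones 33 had their lowest there. In 40 of the 47 both II/III-VI arrays lay beyond all 4 other arrays of their set, a position held by 1.97% (higher) and 8.57% (lower) of all Leydig genes. The calls used these same values, so such positions follow largely from the selection and give no separate support.

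These calls rested on the 2 arrays of 1 window. Without II/III-VI replicate 1 the count of called Leydig genes fell to 0 (265 at an unadjusted p under 0.05, limma) and that of remaining genes to 7. Without II/III-VI replicate 2 the median difference of Leydig genes was -0.12, against 0.01 without replicate 1. Most Leydig genes called without replicate 2 were not among the 47. Without the replicate block 8 Leydig genes were called, 6 of them among the 47 (Arhgap28, Foxa3, Rpp25, Cacna2d1, Eya1 and Fam13a). With the block kept but the other 8 arrays as 1 group, 0 genes were called (smallest adjusted p 0.243, limma). That fit puts differences among the other windows into the error. The balance of directions followed the scaling: after centring each array on its median, 26 Leydig genes were called higher and 28 lower, where the values as deposited gave 12 and 35.

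**Figure D1:**
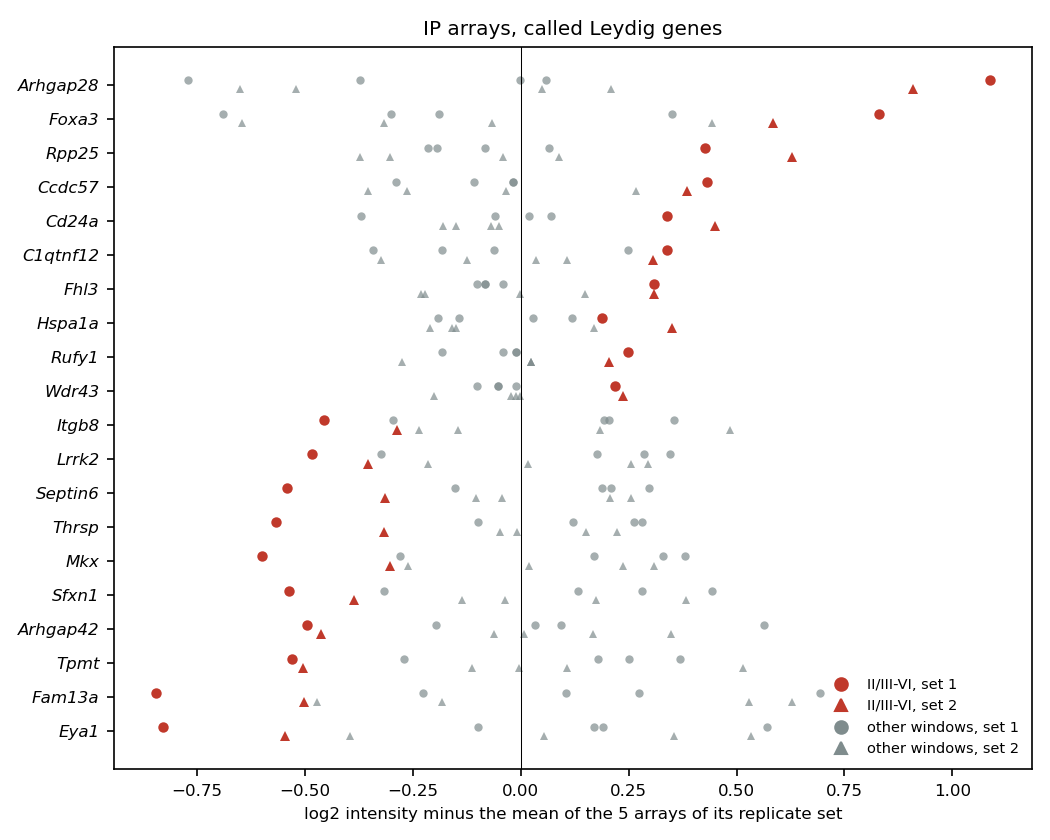
Values in the 10 IP arrays for the 10 higher and the 10 lower Leydig genes with the largest called differences among those whose II/III-VI arrays lay beyond all others of their set, as log2 intensity minus the mean of the 5 arrays of the replicate set; each point is 1 array, circles are set 1, triangles set 2, and red marks II/III-VI. The red points of each gene lie outside the grey points of the same shape, and the distance is largest for Arhgap28, at 1.35 and 1.14 log2 units from the mean of the 4 other arrays in sets 1 and 2.

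Arhgap28 had the largest rise of a Leydig gene. Its log2 intensity was 10.63 in both II/III-VI arrays. In set 1 the other windows, in the order XII-II/III, VI-VIII, VIII-X and X-XII, read 9.60, 8.77, 9.17 and 9.54, and in set 2 they read 9.07, 9.20, 9.93 and 9.77. The II/III-VI arrays thus stood above all 8 others, by 1.25 ± 0.22 log2 units (SE, 2 arrays against 8, limma adjusted p = 0.0257), a 2.38-fold difference. In Total, Arhgap28 stayed between 7.94 and 8.13 in all 10 arrays, and the difference there was -0.02 ± 0.036. Those levels lay below the median log2 intensities of the Total sets, 9.19 and 9.17. Whether so low a signal could show a change in Total was not tested. The IP difference exceeded the Total difference by 1.26 ± 0.24 (limma interaction, adjusted p = 0.0303), a test that 1.61% of all genes and 2.51% of Leydig genes passed. Without II/III-VI replicate 1 the IP difference was 1.14 with an adjusted p of 0.236, and without replicate 2 it was 1.35 with 0.0936.

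Foxa3, a forkhead transcription factor first described in liver and also made in Leydig cells, read 10.62 and 10.74 in II/III-VI. The other windows, in the same order, read 9.60, 9.10, 9.49 and 10.14 in set 1 and 9.51, 9.84, 10.09 and 10.60 in set 2. VI-VIII was low and X-XII came next to II/III-VI in both sets. The difference was 0.89 ± 0.16 (adjusted p = 0.0271), or 1.85-fold. Total, where Foxa3 also lay below the set medians, showed 0.03 ± 0.087. The difference between fractions, 0.85 ± 0.19, had an adjusted p of 0.057 (limma interaction). Without II/III-VI replicate 1 the adjusted p of Foxa3 was 0.255, without replicate 2 it was 0.0762, and without replicate 1 of VIII-X or X-XII it was 0.0646 or 0.0516.

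**Figure D2:**
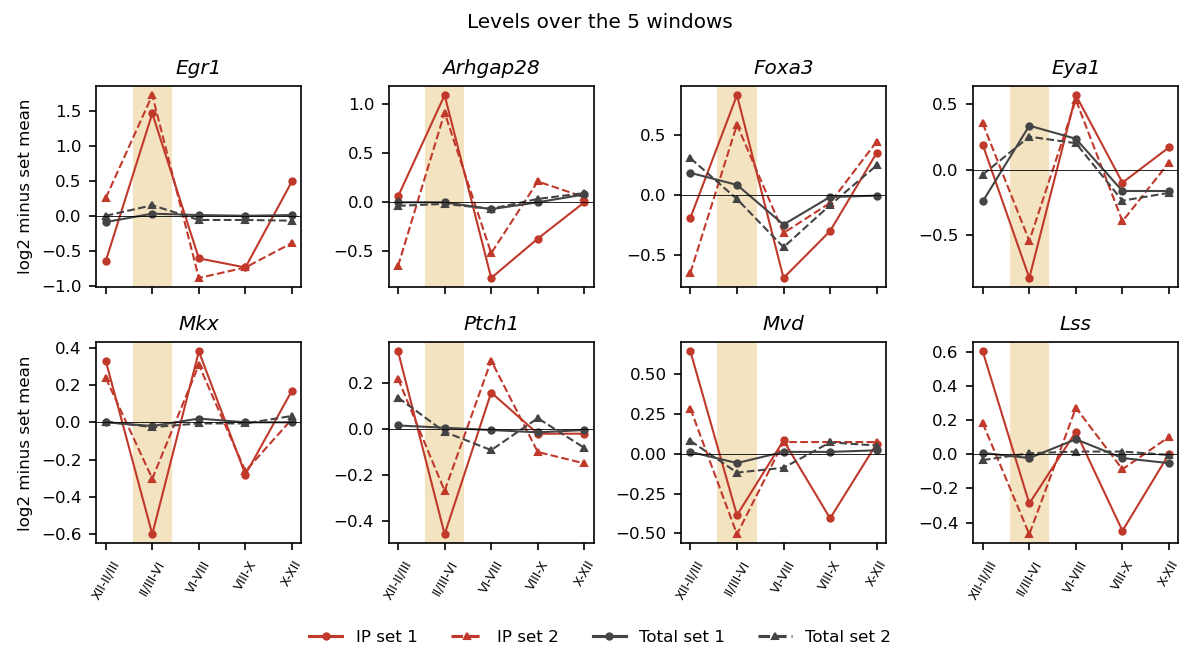
Levels of 8 genes over the 5 windows, as log2 intensity minus the mean of the 5 arrays of the set (each panel has its own vertical scale); red lines are IP, grey lines Total, solid set 1 and dashed set 2, and the band marks II/III-VI. Egr1, Arhgap28 and Foxa3 are highest in the band in both IP sets, Mkx and Ptch1 are lowest there in both, Eya1 is lowest there in IP with Total above its mean, and Mvd and Lss are highest in XII-II/III in set 1.

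The other higher Leydig genes rose by 0.28 to 0.70 log2 units. Rpp25, a subunit of ribonucleases P and MRP, read 10.85 and 11.10 in II/III-VI. Its other arrays lay between 10.21 and 10.49 in set 1 and between 10.10 and 10.56 in set 2, and the difference was 0.66 ± 0.097 (adjusted p = 0.0162). Hspa1a, an inducible HSP70 chaperone, read 10.64 and 10.99 in II/III-VI. Its next highest arrays were those of VIII-X, at 10.57 and 10.81, so the rise of 0.34 ± 0.073 was small (adjusted p = 0.0441), while Total showed -0.15 ± 0.058. S1pr3, a receptor for sphingosine 1-phosphate, read 12.84 and 12.77 in II/III-VI, but X-XII was as high at 12.74 and 12.99. Its lowest levels were in VI-VIII, at 11.69 and 11.83, and its difference was 0.51 ± 0.081 (adjusted p = 0.0203). The paralogs S1pr1 (-0.19 ± 0.17) and S1pr2 (0.01 ± 0.055) did not pass the test. S1pr3, S1pr1 and S1pr2 were chosen after their values were seen.

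For 6 of the higher Leydig genes whole testis moved too. C1qtnf12, the secreted protein adipolin, read 12.51 and 12.78 in II/III-VI and rose by 0.40 ± 0.077 in the IP, against 1.00 ± 0.16 in Total. Cacna2d1, a calcium channel subunit, rose by 0.70 ± 0.12 in the IP and by 1.08 ± 0.096 in Total (chosen after its values were seen), and its VI-VIII array in set 1, at 9.51, was as high as II/III-VI at 9.50. Cd24a, a small surface glycoprotein, rose by 0.49 ± 0.10 in the IP and 0.59 ± 0.12 in Total. Ccdc57 (0.51 ± 0.097), Fhl3 (0.38 ± 0.08) and the endosomal protein Rufy1 (0.28 ± 0.055) rose in the IP and also passed the test in Total. Wdr43, which acts in ribosome assembly, rose by 0.28 ± 0.061 in the IP and read 0.20 ± 0.066 in Total without passing there. In all, 6 of the 12 higher Leydig genes were also called higher in Total, where 12.2% of Leydig genes were called higher.

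Among the lower Leydig genes Eya1, a phosphatase and transcriptional coactivator of the eyes absent family, fell most. It read 9.61 and 10.17 in II/III-VI. In the order XII-II/III, VI-VIII, VIII-X and X-XII the other windows read 10.63, 11.01, 10.34 and 10.61 in set 1 and 11.07, 11.25, 10.32 and 10.77 in set 2. II/III-VI was the lowest array of each set and VI-VIII the highest, and the difference was -0.86 ± 0.11 (adjusted p = 0.011). In Total, Eya1 went the other way, with 9.28 and 9.26 in II/III-VI and a rise of 0.37 ± 0.063 (adjusted p = 0.00818). The difference between fractions was -1.22 ± 0.13 (limma interaction, adjusted p = 0.0085). Without II/III-VI replicate 1 the IP difference of Eya1 was -0.68 with an adjusted p of 0.131.

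Mkx, the homeobox factor Mohawk, read 9.62 and 10.19 in II/III-VI. Its other arrays ran from 9.94 to 10.60 in set 1 and from 10.23 to 10.80 in set 2, with VIII-X next lowest in both. The difference was -0.57 ± 0.091 (adjusted p = 0.0208) in the IP and -0.02 ± 0.035 in Total. In Total, Mkx lay between 7.63 and 7.78, below the set medians of 9.19 and 9.17. The fractions differed by -0.54 ± 0.10 (limma interaction, adjusted p = 0.0292), and what so low a Total signal could show was not tested. The call for Mkx was lost without the replicate block (adjusted p = 0.106), without II/III-VI replicate 1 (0.155), without either array of XII-II/III (0.064 and 0.0526) and without VIII-X replicate 1 (0.0562).

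Fam13a read 9.43 and 10.07 in II/III-VI against 10.05 to 10.97 and 10.10 to 11.20 elsewhere. Its II/III-VI array in set 2 was only just the lowest, and it fell by 0.84 on the log2 scale (SE 0.19, adjusted p = 0.0471). Arhgap42 read 10.21 and 10.43 and differed by -0.60 ± 0.12 (adjusted p = 0.039). Itgb8, an integrin subunit known for activating latent TGF-beta, read 8.61 and 9.22, with VIII-X close at 8.77 and 9.27, and differed by -0.46 ± 0.10. Thrsp, a nuclear protein tied to fat synthesis, read 9.81 and 10.38 and differed by -0.55 ± 0.10 in the IP and -0.11 ± 0.037 in Total.

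Of the 35 lower Leydig genes 13 were also called lower in Total, where 9.18% of Leydig genes were called lower, and Eya1 and Tmco6 were called higher there. Tpmt, the thiopurine methyltransferase, read 10.87 and 11.23 in the IP at II/III-VI against 11.13 to 11.77 and 11.62 to 12.25 elsewhere. Its difference was -0.64 ± 0.14 in the IP and -0.99 ± 0.096 in Total. Sfxn1, a mitochondrial serine transporter, differed by -0.58 ± 0.10 and -0.56 ± 0.13 in the 2 fractions, Septin6, a cytoskeletal GTPase, by -0.54 ± 0.088 and -0.52 ± 0.10, and the kinase gene Lrrk2 by -0.52 ± 0.099 and -0.41 ± 0.096. For Sfxn1 and Lrrk2 the Total arrays of VI-VIII were lower still than those of II/III-VI. Ube2d1, a ubiquitin-conjugating enzyme, fell less in the IP (-0.32 ± 0.071) than in Total (-1.12 ± 0.13), and the fractions differed by 0.81 ± 0.16 (limma interaction, adjusted p = 0.0358). Ube2d1 was chosen after its values were seen.

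**Figure D3:**
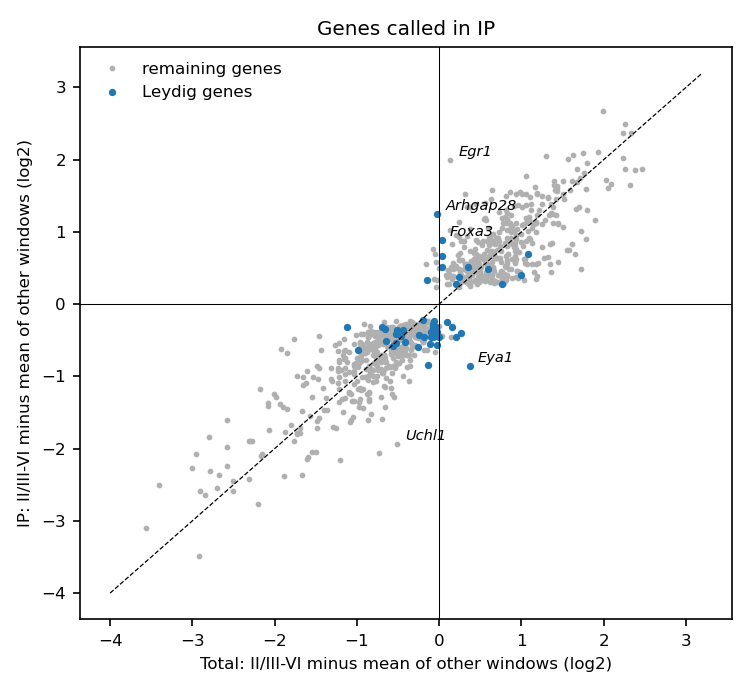
Difference between II/III-VI and the mean of the other windows in Total (horizontal) and IP (vertical), in log2 units, for the 912 genes called in the IP; blue points are the 47 Leydig genes, grey points the 865 remaining genes, and the dashed line marks equal differences. Grey points follow the line, while Egr1, Arhgap28 and Foxa3 lie near 0 in Total and Eya1 has opposite signs in the 2 fractions.

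Ptch1, the Hedgehog receptor and itself a classical Hedgehog target, was the single called gene among 14 tested Leydig cell markers outside steroidogenesis, where 1.69% of Leydig genes and 7.08% of all genes were called. Desert hedgehog from Sertoli cells acts on Leydig cells through it. Ptch1 read 10.83 and 11.40 in II/III-VI. In the order XII-II/III, VI-VIII, VIII-X and X-XII the other windows read 11.63, 11.45, 11.27 and 11.27 in set 1 and 11.89, 11.97, 11.57 and 11.52 in set 2. II/III-VI was the lowest of each set, though the margin to X-XII in set 2 was small, and the difference was -0.46 ± 0.082 (adjusted p = 0.0271). Total showed 0.00 ± 0.052, and the fractions differed by -0.46 ± 0.099 (limma interaction, adjusted p = 0.048). Its partner Smo read 0.02 ± 0.079, the target Gli1 0.03 ± 0.068 and the inhibitor Sufu -0.51 ± 0.12, none of which passed (adjusted p = 0.946, 0.862 and 0.0587), and the ligand gene Dhh, a remaining gene here, read -0.33 ± 0.27. The call for Ptch1 was lost without the replicate block (adjusted p = 0.35) and without either array of II/III-VI (0.254 and 0.0554), XII-II/III (0.0746 and 0.0579) or VIII-X (0.0679 and 0.0539). Smo, Gli1 and Sufu were chosen after their values were seen.

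The genes of this and the next paragraph were chosen after their values were seen, and no list of such genes was tested. Castor1 binds arginine, and both Castor1 and Castor2, like the sestrins, restrain the growth kinase complex mTORC1. Castor1 read 10.46 and 10.45 in II/III-VI, with VI-VIII at 10.22 and 10.52 and the other windows between 11.10 and 11.37. Its difference was -0.51 ± 0.079 (adjusted p = 0.0182), with -0.65 ± 0.12 in Total. Castor2 read 10.20 and 10.57 and was lowest in II/III-VI in both sets, with VI-VIII highest at 10.83 and 11.32. It differed by -0.45 ± 0.069 (adjusted p = 0.018) in the IP and read 0.21 ± 0.11 in Total, and the fractions differed by -0.66 ± 0.13 (limma interaction, adjusted p = 0.0364).

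Sesn1 read 11.67 and 12.12 in II/III-VI against 12.11 to 12.38 and 12.36 to 12.53 elsewhere, a difference of -0.43 ± 0.07 (adjusted p = 0.0215). Sesn2, a remaining gene, fell by 0.88 on the log2 scale (SE 0.20, adjusted p = 0.0496), and Sesn3 read -0.27 ± 0.073 without passing (0.0803). Depdc5, a subunit of the GATOR complex downstream of the sestrins and Castor proteins, read -0.22 ± 0.056 (0.0653). Serine and folate enzymes gave smaller differences. Shmt2, the mitochondrial serine hydroxymethyltransferase, read 10.71 and 11.12 and differed by -0.25 ± 0.055 (adjusted p = 0.0464), with 0.09 ± 0.043 in Total and a difference between fractions of -0.34 ± 0.067 (adjusted p = 0.0357). Shmt1 (-0.20 ± 0.095), Mthfd1 (-0.28 ± 0.066), Mthfd2 (-0.22 ± 0.094), Mthfd1l (-0.20 ± 0.13) and Sfxn2 (-0.01 ± 0.081) did not pass the test. Maob, the amine-degrading oxidase that was among the genes most enriched by the IP (3.71 log2 units over Total), fell by 0.44 (SE 0.092, adjusted p = 0.0413), while its neighbour in function Maoa read -0.05 ± 0.078.

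The other called Leydig genes, also named after their values were seen, fell by 0.22 to 0.46 on the log2 scale. They were Glb1l2, Pla2g15, Slc51b, Megf9, Parm1, Sod3, Prr16, Acss1, Ehf, Snx7, Cyld, Efemp1, Ankdd1b, Tmco6, Hfe, Dpysl2, Grasp and Camsap3. Sod3 is the extracellular superoxide dismutase, Acss1 a mitochondrial acetyl-CoA synthetase, Hfe a regulator of iron uptake and Efemp1 a matrix protein. Efemp1 gave -0.39 ± 0.066 in the IP and -0.02 ± 0.053 in Total, and Acss1 gave -0.35 ± 0.076 and -0.66 ± 0.088. Tmco6 fell by 0.40 in the IP (SE 0.075, adjusted p = 0.031) and rose by 0.26 in Total (SE 0.055, adjusted p = 0.0167), with a difference between fractions of -0.66 ± 0.095 (limma interaction, adjusted p = 0.0168). Megf9 gave -0.31 ± 0.064 and 0.16 ± 0.067.

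Genes that turn cholesterol into testosterone did not pass the test. Of 11 tested, 0 were called (1 at an unadjusted p under 0.05, limma), and their median difference was 0.01 log2 units against -0.06 over all Leydig genes. Star, which brings cholesterol into mitochondria, read 13.86 and 13.98 in II/III-VI, within the range of the other windows (13.30 to 13.90 and 13.79 to 14.20), a difference of 0.09 ± 0.097. Cyp11a1, the side-chain cleavage enzyme, gave 0.01 ± 0.057, Cyp17a1 0.01 ± 0.05 and Hsd3b1 0.05 ± 0.067. Cyp17a1 lay between 14.35 and 14.57 in all 10 IP arrays, near the top of the intensity scale, and that gene's promoter also drove the Cre.

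Genes that make cholesterol had negative differences that did not pass. All 17 tested members of the synthesis list had negative differences (13 of 17 in set 1 and 17 of 17 in set 2), with a median of -0.20, and 0 were called (6 at an unadjusted p under 0.05, limma). Over all Leydig genes 69.9% were negative. The most negative were Mvd (-0.55 ± 0.14, adjusted p = 0.0659), Lss (-0.48 ± 0.14, 0.0947) and Hsd17b7 (-0.48 ± 0.18, 0.179), enzymes of the mevalonate and sterol steps. Hsd17b7 stands in both lists and was the 1 steroidogenesis gene at an unadjusted p under 0.05 (limma). The list's median difference was -0.37 against XII-II/III, -0.25 against X-XII, -0.23 against VI-VIII and -0.05 against VIII-X. In XII-II/III 16 of the 17 had their highest level, as did 55.2% of all Leydig genes. Mvd read 9.82 and 9.85 in II/III-VI against 10.85 and 10.64 in XII-II/III, and it was lower by 0.91 there (adjusted p = 0.0371), but VIII-X in set 1 was as low at 9.80. Ebp was the other member called lower than in XII-II/III, at -0.37 (adjusted p = 0.0471). In the list of sterol sensing and lipid stores 0 of 22 were called (4 at an unadjusted p under 0.05), with Srebf1, which encodes a regulator of lipid synthesis, at -0.37 ± 0.089 (adjusted p = 0.0572).

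Egr1, an immediate early transcription factor induced by many hormone and growth signals, rose in the IP and was not called in Total. It lay just outside the Leydig class, 0.85 log2 units higher in IP than in Total. Egr1 read 10.99 and 11.63 in II/III-VI. In the order XII-II/III, VI-VIII, VIII-X and X-XII the other windows read 8.88, 8.92, 8.79 and 10.02 in set 1 and 10.16, 9.02, 9.17 and 9.52 in set 2. II/III-VI was above all 8 others, and the difference was 2.00 ± 0.29 (adjusted p = 0.0153), or 4.01-fold. In Total, Egr1 lay between 8.79 and 9.01 in all 10 arrays (0.13 ± 0.055), below the set medians of 9.19 and 9.17. The fractions differed by 1.88 ± 0.32 (limma interaction, adjusted p = 0.0232), and what so low a Total signal could show was not tested. Without II/III-VI replicate 1 the adjusted p of Egr1 was 0.14 and without replicate 2 it was 0.0909.

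Egr1 was the 1 immediate early gene called higher of 26 tested, a count near the 3.15% of all genes called higher. Of the 26, 15 had a positive and 11 a negative difference, down to -0.33 for Dusp4, and the list's median was 0.03. The members given next are examples chosen after their values were seen, and all of them are positive. Btg2, an antiproliferative Leydig gene, read 11.04 and 11.23 in II/III-VI, above all 8 other arrays (10.03 to 10.73), a difference of 0.75 ± 0.18 that missed the threshold (adjusted p = 0.0542). Dusp6, a phosphatase of ERK, gave 0.56 ± 0.19 (0.139), Junb 0.26 ± 0.10 (0.187) and Klf2 0.29 ± 0.067 (0.051). Nr4a1, a nuclear receptor induced by luteinizing hormone, read 12.27 and 11.22 in II/III-VI, but its highest levels were in X-XII at 13.11 and 12.70, and its difference was 0.35 ± 0.28 (0.536).

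The cAMP list, which holds parts and targets of the pathway that luteinizing hormone drives, had 3 of 26 called, where 7.08% of all genes were called, so the count was near the background. Crem, which in testis is chiefly a spermatid factor, rose by 0.37 ± 0.076 in the IP and 0.34 ± 0.043 in Total. Gem, a small GTPase, fell by 1.04 (SE 0.19, adjusted p = 0.0297) and by 1.47 in Total. Per1, a clock gene and a cAMP target, read 10.98 and 11.03 in II/III-VI against 11.28 to 11.94 and 11.30 to 12.02 elsewhere, and fell by 0.65 (SE 0.058, adjusted p = 0.00502) in the IP and by 0.59 in Total. Per2 moved the other way in the IP. It read 10.68 and 10.59 in II/III-VI against 9.55 to 10.14 and 9.47 to 10.70 elsewhere, where the 10.70 was X-XII of set 2, and rose by 0.71 ± 0.15 (adjusted p = 0.0422), with 0.25 ± 0.052 in Total. Per1 and Per2 were the 2 called of 19 clock genes, also near the 7.08% of all genes, and Arntl (-0.32 ± 0.21), Nr1d1 (0.09 ± 0.13) and Dbp (-0.07 ± 0.13) did not pass. The labels used here give no hour of collection.

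Hormone and growth factor receptors (0 of 22 called, 2 at an unadjusted p under 0.05), secreted growth factors and cytokines (0 of 15, 1) and extracellular matrix genes (0 of 24, 3) gave no limma call in the IP. The retinoid list had 1 of 17 called, Rdh11, a retinal reductase, at -0.39 ± 0.067. The protein folding list had 2 of 24, Hspa1a higher and Sdf2l1, an endoplasmic reticulum protein of the unfolded protein response, lower by 1.16 (SE 0.16) with -0.96 ± 0.13 in Total. Over all genes tested 3.15% were called higher and 3.94% lower.

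**Figure D4:**
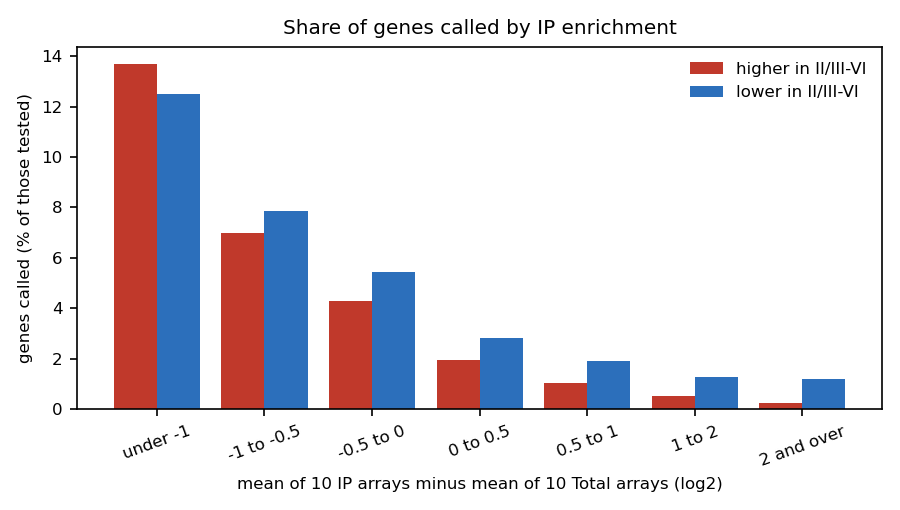
Percent of tested genes called higher (red) or lower (blue) in II/III-VI, by how far the mean of the 10 IP arrays lay above the mean of the 10 Total arrays, in log2 units; bars start at 0. The share called in either direction falls from 26.2% of the 753 genes under -1 to 1.44% of the 834 genes at 2 and over.

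The genes called in the IP were mainly those the IP depleted. The share called fell step by step from 26.2% of genes more than 1 log2 unit lower in IP than in Total to 14.9%, 9.73%, 4.81%, 2.94%, 1.79% and 1.44% in the most enriched genes. Of the 865 called remaining genes 754 were called in the same direction in Total and 0 in the opposite direction, where 32.3% of remaining genes were called in Total. The size of the median absolute difference was 0.10 for remaining and 0.09 for Leydig genes.

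The 10 largest rises of remaining genes whose II/III-VI arrays both lay beyond the others of their set included Egr1 and Tpte. Tpte read 11.76 and 10.68 in II/III-VI of the IP, against 10.93 and 9.98 in VI-VIII and 7.38 to 8.97 in the other windows, a rise of 2.50 ± 0.42 with 2.26 ± 0.23 in Total. The other 8 largest rises after Egr1 and Tpte ran from 1.75 for Prss46 to 2.37 for 4921504E06Rik, and all 8 also passed in Total. Of 30 spermatid markers 6 rose, where 3.9% of remaining genes were called higher, led by Catsper3, a subunit of the sperm calcium channel, at 1.70 ± 0.11 in the IP and 1.62 ± 0.27 in Total, with Spaca1, an acrosomal membrane protein, Izumo1, the sperm protein that binds the egg, and Sun5, which joins head and tail. All 6 had their highest IP level in VI-VIII. All 6 were also more than 1 log2 unit lower in IP than in Total, where 103 of 753 such genes were called higher. Of the 30 spermatid markers 18 had a negative difference, and the list's median was -0.04. Tnp1, the transition protein of chromatin packing, fell by 2.16 (SE 0.48, adjusted p = 0.0482). Of 32 genes of the axoneme and cilium 8 rose, against the same 3.9% of remaining genes, among them Foxj1, the master regulator of motile cilia, at 0.56 ± 0.07, Spag6, a central pair protein, at 1.48 ± 0.094, and Iqca at 2.03 ± 0.33. The list's median was 0.14, and 9 of the 32 were negative, down to -0.70 for Dnah2. The sets differed, with 6 of the 32 negative in set 1 and 19 in set 2. Iqca and Ppil6 of this list were also among the 10 largest rises, so the 2 results overlap. The gene lists were chosen with earlier results of these data known, so list counts set against 3.9% give no separate support.

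The 10 largest falls chosen the same way ran from -2.36 for Fam71a to -3.48 for Trp53tg5. Trp53tg5 read 8.26 and 9.14 in II/III-VI of the IP, with VI-VIII at 9.53 and 11.76 and the other windows between 12.05 and 13.39. It fell by 3.48 (SE 0.49, adjusted p = 0.0139), with -2.92 ± 0.40 in Total. Prss52 fell by 3.10 and Prss37, a serine protease homolog needed for sperm migration, by 2.76, and all 10 passed in Total as well. Uchl1, a ubiquitin hydrolase of spermatogonia, fell further in the IP (-1.94 ± 0.36) than in Total (-0.51 ± 0.09), but the difference of -1.43 ± 0.41 did not pass (limma interaction, adjusted p = 0.118). Dazl, a germ cell RNA-binding protein, rose by 0.64 ± 0.13. Among 22 spermatocyte markers 1 was called higher, Hormad2 at 0.68 ± 0.15, and 1 lower, Dmc1, which fell by 0.36 (SE 0.07). These counts were near the 3.9% higher and 4.68% lower of all remaining genes, and the list's median difference was -0.01.

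Among 18 Sertoli markers 3 passed, where 8.58% of remaining genes did. Aqp8, a water channel, read 11.18 and 12.57 in II/III-VI and 12.78 and 11.96 in VI-VIII against 8.40 to 10.17 elsewhere, and rose by 1.87 ± 0.35 in the IP and 2.26 ± 0.17 in Total. Gata1, a transcription factor found in Sertoli cells, fell by 1.01 (SE 0.21) in the IP and by 0.90 in Total, and Shbg, the androgen-binding protein, fell by 0.85 and 0.75. The summed intensity of the 20 Sertoli markers listed was 45000 in II/III-VI of IP set 1, below the 51800 to 64100 of the other arrays, and 67900 in set 2, within 49900 to 71300. Their part in the Leydig results was not tested. Among myoid markers Actg2, a smooth muscle actin, was the 1 called of 6 tested and fell by 0.78 (SE 0.17), and 0 of 3 macrophage and 0 of 5 endothelial markers passed (1 and 1 at an unadjusted p under 0.05, limma). The 15 other Leydig markers summed to 85700 in II/III-VI of IP set 1 against 92800 to 96500 in its other arrays, and to 107000 in set 2 against 104000 to 110000, and their part in the count of lower Leydig genes was not tested.

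**Figure D5:**
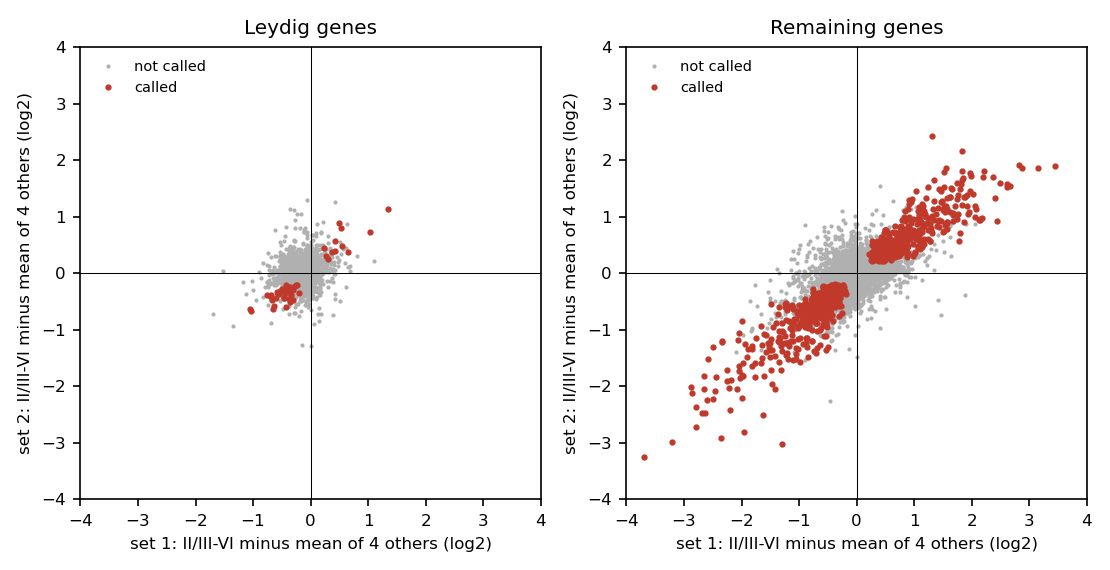
Difference between II/III-VI and the mean of the 4 other IP arrays in set 1 (horizontal) and set 2 (vertical), in log2 units, for 2788 Leydig genes (left) and 10085 remaining genes (right); red marks called genes. Remaining genes spread along the diagonal (r = 0.75 across genes), while Leydig genes form a rounder cloud (r = 0.24) with 47 called genes.

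The replicate sets agreed much less for Leydig genes than for remaining genes. Across genes the differences of set 1 and set 2 correlated at r = 0.75 for the 10085 remaining genes and at r = 0.24 for the 2788 Leydig genes, and 67.1% and 50.8% of genes had the same sign in both sets. These are descriptions across genes that share arrays and are not independent. The median difference of Leydig genes was -0.12 in set 1 and 0.01 in set 2. Between IP and Total, made from the same homogenates, the differences correlated at r = 0.83 for remaining and 0.38 for Leydig genes.

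Against VI-VIII alone 0 of 12873 genes were called (1328 at an unadjusted p under 0.05, or 10.3%, and the smallest adjusted p was 0.206, limma). Against XII-II/III 446 genes were called higher (3.46%) and 332 lower (2.58%), against VIII-X 428 (3.32%) and 769 (5.97%), and against X-XII 483 (3.75%) and 464 (3.6%). Of Leydig genes 7 were higher (0.251%) and 62 lower (2.22%) than in XII-II/III. Against VIII-X the Leydig counts were 16 (0.574%) and 17 (0.61%), and against X-XII they were 5 (0.179%) and 15 (0.538%). The centred profile of VI-VIII in set 1 correlated with that of II/III-VI in set 2 at r = 0.76 over all tested genes and 0.26 over Leydig genes. The reverse pair, II/III-VI in set 1 with VI-VIII in set 2, gave 0.40 and -0.22, and the 2 II/III-VI arrays gave 0.69 and 0.24. Over Leydig genes II/III-VI in set 1 correlated more with X-XII in set 2, at 0.39. Several leading Leydig genes differed more from VI-VIII than from any other window, by 1.65 for Arhgap28, 1.21 for Foxa3, -1.24 for Eya1 and -0.80 for Mkx, none of which passed against that window alone. Leaving out window VI-VIII, an alternative chosen after seeing the data, raised the calls to 1657 genes, of which 70 were Leydig genes.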

How the data were processed

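RNA of the HA immunoprecipitates and of total testis was amplified from 100 ng and hybridized to mouse gene 1.0 ST arrays, 1 array a sample, per the labels' protocols. The authors deposited linear intensity values per probe set, and the submitters' processing notes name RMA, whose version is not given in the sources used here. In the deposited values the 4 sets of 5 arrays (IP and Total, replicates 1 and 2) each looked normalized on their own: the median log2 intensity was 9.11 and 9.99 in the IP sets and 9.19 and 9.17 in the Total sets, they listed 28856, 23528, 26006 and 26013 probe sets, and 8.38% to 13.45% of value pairs were equal within a set against 6 of 3524250 across sets. The IP minus Total margin is therefore across scales, and arrays were compared within sets. The number of arrays, 2 a group, limits the precision.

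From these, log2 values were taken, probe sets with 1 gene symbol kept (21789, with 1621 naming several genes and 5446 none), and the highest-mean probe set used per gene. Genes whose mean over the 10 IP arrays lay below the 25th percentile of the single IP values (8.75) were left out. This kept 12873 of 17121 genes listed on all 20 arrays. limma 3.58.1 (R 4.3.3) fitted a mean for each window and the replicate set as a block on the 10 IP arrays (4 residual degrees of freedom); the contrast was II/III-VI minus the mean of the 4 other window means, with Benjamini-Hochberg adjustment over all genes tested and a threshold of 0.05. The same model was fitted to Total, and both fractions were fitted together, with the sets as a block, for the difference between them. That joint fit treated IP and Total arrays of the same homogenate as independent, so its SE and p-values do not use the pairing by testis. The fit was tested on simulated data. The block is in the fit because arrays were centred by set; deviations of same-numbered IP arrays correlated at -0.09 to 0.52 (median 0.19 over 10 pairs), so the numbers show no clear pairing beyond the shared set.

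Genes named were, in each class and direction, the 10 with the largest called differences whose II/III-VI arrays lay beyond the 4 others of both sets, plus called list members and list members given as examples; others are said to be chosen after their values were seen. The classes and gene lists were chosen with earlier results of these data known. Alternatives changed the block, the arrays fitted, scaling, weights, filter, probe set rule and class margin, and left out each IP array.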

Additional observations from a re-analysis of the deposited data

Results flagged for a closer look

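For 207 of 12873 genes the II/III-VI difference in the IP differed from that in Total (limma interaction, adjusted p under 0.05). Among the genes named above, the IP difference exceeded the Total difference by 1.88 ± 0.32 for Egr1 (adjusted p = 0.0232), 1.26 ± 0.24 for Arhgap28 (0.0303), 0.49 ± 0.094 for Hspa1a (0.0326) and 0.46 ± 0.093 for S1pr3 (0.0373), all 4 higher in the IP. For Ube2d1 the value was 0.81 ± 0.16 (0.0358), because the fall was larger in Total. The IP difference lay below the Total difference by -1.22 ± 0.13 for Eya1 (0.0085), -0.66 ± 0.095 for Tmco6 (0.0168), -0.66 ± 0.13 for Castor2 (0.0364), -0.54 ± 0.10 for Mkx (0.0292), -0.46 ± 0.099 for Ptch1 (0.048), -0.46 ± 0.093 for Megf9 (0.0373) and -0.34 ± 0.067 for Shmt2 (0.0357). In Total, Egr1, Arhgap28 and Mkx lay below the medians of their sets, and what so low a signal could show was not tested. Groups of 2 arrays were too small for a check of single outlying arrays.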

How the results depend on the processing

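No difference of a called gene named here changed sign under any alternative run, except that Slc29a3, Rap1gap and Nudcd2, named for their place near the class margin, were not checked. Without the replicate block, which does not use the pairing by set, 527 genes were called (Leydig 8, remaining 519), 4 for the difference between fractions, and 443, 653 and 553 against XII-II/III, VIII-X and X-XII. With the other 8 arrays as 1 group 0 were called in all genes, Leydig genes and remaining genes (1809, 238 and 1571 at an unadjusted p under 0.05, limma). With all 20 arrays fitted together the counts were 1848, 175 and 1673. The 50th percentile filter left 578 and, for remaining genes, 546, array weights left 19 Leydig genes, and leaving out window VI-VIII, chosen after seeing the data, gave 1657 and, for remaining genes, 1587. Class margins of 0.5 and 2, or of 1 after centring, gave 110, 12 and 26 called Leydig genes. Leaving out 1 array gave 7 to 1050 genes, 0 to 58 Leydig genes and 7 to 1002 remaining genes; the lowest came without II/III-VI replicate 1, where the lone array is assumed to vary like the other groups. Fewer than 32 called Leydig genes also resulted without II/III-VI replicate 2 (20), XII-II/III replicates 1 and 2 (8 and 10), VIII-X replicates 1 and 2 (11 and 20), X-XII replicate 1 (24) and VI-VIII replicate 2 (20). After centring, 26 Leydig genes were higher and 28 lower, and after quantile normalization 25 and 27, against 12 and 35. The causes were not tested.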
